A study of Mus musculus with 5 samples.

Results

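The 9 genes described here encode titin and proteins that anchor it, crosslink its ends or sense strain along it. They are Ttn, Tcap, Csrp3, Ankrd1, Ankrd23, Myoz2, Nexn, Actn2 and Myom1, chosen by gene symbol, and all 9 were found among the 41128 genes of the per-library table. Nuclear RNA had been sequenced from cardiomyocyte nuclei of FVB mice aged 8 weeks, 7 days after the left anterior descending artery of the heart had been tied off for good. The border zone group comprised 3 libraries (mice 32, 34 and 40) of microdissected muscle beside the infarct, and the remote group 2 libraries (mice 40 and 43) of muscle away from it. Both groups came from infarcted hearts, so neither stands for uninjured muscle, and the 5 libraries name 4 animals because mouse 40 gave both regions. Nuclei had been sorted for PCM-1, a centrosomal protein found around cardiomyocyte nuclei, and cDNA was made from 500 pg of input.

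Titin is the giant elastic protein of the sarcomere. One end of it is fixed in the Z-disc, where actin filaments of neighbouring sarcomeres are crosslinked, and the other in the M-band, where myosin filaments are held together. Its spring region lengthens when the muscle is stretched, and proteins bound to the spring and to the Z-disc carry signals of strain to the nucleus. In the heart, several of these proteins are mutated in inherited cardiomyopathy, and Ankrd1 is a widely used marker of cardiac stress. Myom1 belongs to the M-band and not to the Z-disc, and it is kept here as the counterpart at the other end of titin.

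Values are normalized reads, that is reads per gene divided by 1 size factor for each library. Depth lay between 18725791 and 25014205 reads in the border zone and between 11324539 and 13440421 in remote muscle. By size factor, the border zone libraries of mice 32 and 34 (0.631 and 0.813) stood apart from the other 3 (1.28 to 1.37). At equal depth they held 15843 and 18288 genes, against 19602 in border zone mouse 40 and 22386 to 22670 in remote muscle. On that measure border zone mouse 40 lay nearer to mouse 34 than to remote muscle. Results are also given without the libraries of mice 32 and 34. All 8 cardiomyocyte markers examined (Myh6, Tnnt2, Tnni3, Actc1, Ryr2, Pln, Nkx2-5 and Myl2) had reads in every library and together took 2.62% to 3.38% of border zone reads and 3.24% to 3.86% of remote reads. Fibroblast markers, 7 or 8 of 8 detected in each library, took 0.0118% to 0.0231% of border zone and 0.0239% to 0.0272% of remote reads. Endothelial markers, 5 to 7 of 7 detected, took 0.000528% to 0.00419% and 0.00304% to 0.00529%, and macrophage markers, 5 to 7 of 7 detected, took 0.000244% to 0.00149% and 0.00213% to 0.00349%. Kdr, Tek, Adgre1 and C1qa, defining genes of these cell types, were at 0 in border zone mouse 32. The other 5 endothelial and 5 macrophage markers had reads there, among them Vwf (116 normalized reads) and Cd68 (31.7). Adgre1 and C1qa were low throughout, reaching 6.15 and 7.55 at most. Smooth muscle and pericyte markers, 7 of 7 detected, took 0.0331% to 0.0431% and 0.0130% to 0.0259%. In the border zone most of these reads were from Cspg4 (5285 to 11243 normalized reads against 299.7 to 1749.9). By normalized reads 6 of the 7 had a positive log2 change, among them the pericyte gene Pdgfrb (192 to 281 against 100 to 113). Only Rgs5, also a pericyte gene, went the other way (1.58 to 48.5 against 95.1 to 175). Skeletal muscle markers, 5 to 7 of 7 detected, took 0.0171% to 0.0238% and 0.0168% to 0.0327%. The part of these cell types, and of the number of genes per library, in the values below was not tested.

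The genes lie on 8 chromosomes of the mm10 build, and all of them are protein-coding. Ttn (ENSMUSG00000051747) spans chromosome 2 from 76703980 to 76982547 on the minus strand, and its longest transcript has 106824 bases. Ankrd1 (ENSMUSG00000024803) lies on chromosome 19 from 36111961 to 36120099, and Ankrd23 (ENSMUSG00000067653) on chromosome 1 from 36530188 to 36536883, both on the minus strand. Actn2 (ENSMUSG00000052374) lies on chromosome 13 from 12269426 to 12340760 and Nexn (ENSMUSG00000039103) on chromosome 3 from 152236982 to 152266350, both on the minus strand. Csrp3 (ENSMUSG00000030470) lies on chromosome 7 from 48830398 to 48848033 and Myoz2 (ENSMUSG00000028116) on chromosome 3 from 123006206 to 123035015, again on the minus strand. Tcap (ENSMUSG00000007877) on chromosome 11 from 98383811 to 98384953 and Myom1 (ENSMUSG00000024049) on chromosome 17 from 71002633 to 71126856 are on the plus strand. Ankrd23 overlaps the annotated gene Gm42417 on the same strand, and Gm42417 has no value of its own here. Whether reads of Gm42417 were counted for Ankrd23 is not known, so the values of Ankrd23 are uncertain. The antisense gene Gm13938 overlaps Ttn and was listed at 0 to 12.4 normalized reads. Myl12a, which meets the first bases of Myom1 on the other strand, was listed at 445 to 778. The long noncoding gene Gm26561 spans Myom1 on the same strand and was listed at 17.2 to 242. Small annotated genes, Gm22066 in Myoz2 and Gm43185 in Nexn, also lie on the same strand as their hosts.

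Sequence before the start of transcription was at hand for 7 of the 9 genes (RefSeq, GRCm38.p6), and Tcap and Nexn had no entry. The 250 bases before the start are printed for Ttn, Ankrd23 and Csrp3, whose windows overlap no annotated exon, so that genes on both sides of the comparison are shown. The printed Ankrd23 window belongs to a start inside the annotated gene. A further Ankrd23 window, chr1:36536557-36536806, overlaps an exon of the gene and held no M-CAT element. Capitals mark a MEF2 site in Ttn, bound by a factor family of muscle genes, and an M-CAT element (CATTCC, read on both strands) in Ankrd23, the recognition sequence of TEAD factors. The printed Csrp3 window, and a further one for a start inside that gene, held neither of these and no CArG box, the site of serum response factor.
Ttn, chr2:76982548-76982797, minus strand: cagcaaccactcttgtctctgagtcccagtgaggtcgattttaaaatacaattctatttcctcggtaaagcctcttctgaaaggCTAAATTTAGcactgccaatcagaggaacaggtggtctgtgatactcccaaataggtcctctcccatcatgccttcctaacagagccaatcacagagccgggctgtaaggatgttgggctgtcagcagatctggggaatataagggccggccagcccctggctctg
Ankrd23, chr1:36535740-36535989, minus strand: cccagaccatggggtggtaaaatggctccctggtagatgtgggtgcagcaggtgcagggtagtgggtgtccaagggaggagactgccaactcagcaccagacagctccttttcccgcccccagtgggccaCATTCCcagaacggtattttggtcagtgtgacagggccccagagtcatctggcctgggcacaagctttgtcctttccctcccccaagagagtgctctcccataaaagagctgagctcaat
Csrp3, chr7:48848052-48848301, minus strand: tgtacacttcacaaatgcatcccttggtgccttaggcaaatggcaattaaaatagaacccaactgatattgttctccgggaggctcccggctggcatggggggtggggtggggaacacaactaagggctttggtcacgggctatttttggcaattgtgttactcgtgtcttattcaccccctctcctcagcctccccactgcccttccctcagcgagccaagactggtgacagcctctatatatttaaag

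Ankrd1 and Myom1 held such sites at other distances. Both windows belong to starts inside the annotated gene and overlap its own exons. The sites are shown in capitals with 10 bases on each side.
Ankrd1, M-CAT, chr19:36120039-36120064, minus strand, 210 bases before the start: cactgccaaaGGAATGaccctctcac
Ankrd1, M-CAT, chr19:36119952-36119977, minus strand, 123 bases before the start: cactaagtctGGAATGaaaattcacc
Myom1, CArG box, chr17:71019448-71019477, plus strand, 99 bases before the start: gccttcctggCCATAAAAGGctggctgtgg
Of all 32851 windows of this length, 12.6% held an M-CAT element, 2.92% a MEF2 site and 1.47% a CArG box. The other motifs searched on both strands were the E-box CANNTG (66.2% of windows), the AP-1 site TGANTCA (6.75%), GATAA (22.6%) and TATAAA (12.4%), and none of the windows of these 7 genes held the second or the last of these. The matches describe the letters only.

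Titin was among the genes with the most reads in these nuclei, second of the 14989 tested genes by mean value. These values are not divided by transcript length, and the longest Ttn transcript has 106824 bases. Ttn was at 4927482, 2396719 and 1445796 normalized reads for border zone mice 32, 34 and 40, and at 1074109 and 724802 in remote mice 40 and 43. Every border zone library lay above both remote ones, and mouse 32 lay highest. The group means were 2923332 ± 1799591 (SD, n = 3) and 899456 ± 246997 (SD, n = 2). The log2 change, border zone over remote, was 1.55 ± 1.15 (SE) and did not pass by limma (adjusted p = 0.484). The authors' deposited table gave Ttn a log2 change of 1.70 with an adjusted p of 0.120. In a comparison of sorted nuclei, fewer nuclei with a transcript and less of it per nucleus cannot be told apart.

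Ankrd1 and Ankrd23 encode muscle ankyrin repeat proteins, which bind the titin spring and also enter the nucleus. Ankrd1 was at 64033, 37168 and 14939.6 normalized reads for border zone mice 32, 34 and 40, and at 10929 and 8103 in remote mice 40 and 43. The groups did not overlap, although border zone mouse 40 was closer to the remote libraries than to mouse 32. Ankrd1 had the largest log2 change of the 9 genes with the authors' size factors, 1.80 ± 0.62, which was 3.49-fold and did not pass by limma (adjusted p = 0.191). In the authors' deposited table it had a log2 change of 2.02 and an adjusted p of 0.0713, the lowest of the 9 there. Ankrd23 was at 17756, 10958 and 7758 in the border zone and at 3997 and 6183 in remote mice 40 and 43. Its groups did not overlap either, and here the remote library of mouse 43 was the higher of the remote ones. Its log2 change was 1.21 ± 0.50 (limma adjusted p = 0.243).

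Actn2 encodes alpha-actinin, the crosslinker of actin filaments in the Z-disc to which the end of titin binds. It was at 33627, 20834 and 9932 normalized reads for border zone mice 32, 34 and 40, and at 8117 and 6787 in remote mice 40 and 43. The groups did not overlap, with a log2 change of 1.36 ± 0.56 (limma adjusted p = 0.239). Nexn encodes nexilin, an actin-binding protein of the Z-disc and of membrane junctions. It was at 16957, 13550.3 and 7414 in the border zone and at 6797 and 4445 in remote mice 40 and 43. Border zone mouse 40 lay just above remote mouse 40, and the log2 change was 1.12 ± 0.51 (limma adjusted p = 0.273).

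Myom1 encodes myomesin, which links myosin filaments to titin in the M-band, and Tcap encodes telethonin, which caps the Z-disc end of titin. Myom1 was at 24450.1, 16053 and 16678 normalized reads for border zone mice 32, 34 and 40, and at 12011 and 12667 in remote mice 40 and 43. Its groups did not overlap, and its log2 change of 0.60 ± 0.47 was the smallest among the 7 genes with a positive change (limma adjusted p = 0.511). Tcap was at 946, 582 and 1031 in the border zone and at 522 and 458 in remote mice 40 and 43. Here border zone mouse 40 was the highest library and mouse 34 lay just above the remote ones, and the log2 change was 0.76 ± 0.50 (limma adjusted p = 0.433). Tcap had the lowest mean of the 9 genes. In border zone mouse 34 it had 473 reads, a share of 0.00225% with an exact 95% Clopper-Pearson interval of 0.00205% to 0.00246%, which covers counting error only.

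Csrp3 and Myoz2 did not stand higher in the border zone. Csrp3 encodes the muscle LIM protein, a Z-disc protein implicated in strain sensing, and Myoz2 encodes calsarcin, which ties the phosphatase calcineurin to alpha-actinin. Csrp3 was at 1285, 1100.1 and 1399.6 normalized reads for border zone mice 32, 34 and 40, and at 1322 and 2022 in remote mice 40 and 43. Myoz2 was at 1991, 1514 and 801 in the border zone and at 1277 and 2221 in remote muscle. For both genes the groups overlapped, and remote mouse 43 held the highest value. The log2 changes were -0.38 ± 0.46 for Csrp3 (limma adjusted p = 0.674) and -0.33 ± 0.53 for Myoz2 (limma adjusted p = 0.761). The sign for Myoz2 turned without border zone mouse 40 (0.04) or without remote mouse 43 (0.07).

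**Figure D1:**
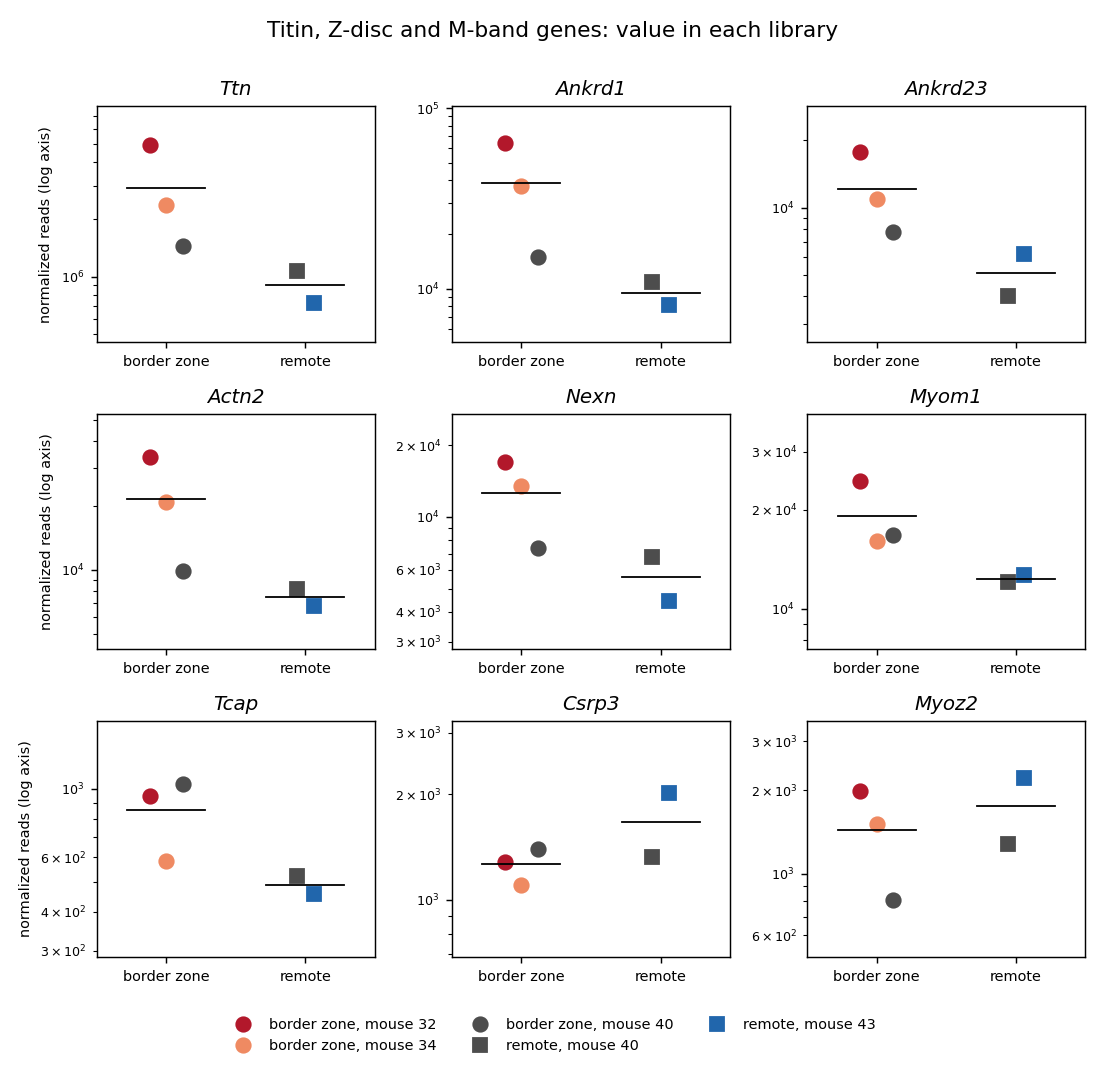
Normalized reads of each gene (log axis, 1 panel per gene) in the 3 border zone libraries (circles) and 2 remote libraries (squares), coloured by mouse, with black lines at the group means. The circles lie above both squares in 7 panels, and in those of Csrp3 and Myoz2 they overlap, as the values above give.

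By limma, 0 of the 9 genes passed in either direction, with 4 higher at an unadjusted p under 0.05 (Ankrd1, Ankrd23, Actn2 and Nexn), where 10.2% of all tested genes were higher at that level. Over all genes, 0% were called higher and 0% lower. edgeR also called 0 of the 9, with 2 higher (Ankrd1 and Actn2) at an unadjusted p under 0.05 against 9.45% of genes. DESeq2 on the recovered reads called 0, with 4 higher at that level (Ttn, Ankrd1, Ankrd23 and Actn2) against 7.61%. Lower at an unadjusted p under 0.05 were 0 of the 9 by each tool, against 7.87% of genes by limma, 6.52% by edgeR and 5.91% by DESeq2. In the authors' deposited table, 3.46% of genes with an adjusted p were called higher and 1.98% lower, and 0 of the 9 in either direction. DESeq2 on the recovered reads gave the same counts as that table, 574 genes higher and 328 lower, so they are not independent results. Without border zone mouse 40, DESeq2 called 3 of the 9 higher, namely Ttn (log2 2.01), Ankrd1 (log2 2.40) and Actn2 (log2 1.86), where 8.56% of genes were called higher and 7.67% lower, while limma called 0 of the 9 without that library. The DESeq2 fits with libraries left out were chosen after the data were seen.

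In 7 of the 9 genes every border zone value lay above both remote values, and in 0 below. Over all tested genes, 18.9% lay above and 20.3% below in this way. The share depended strongly on abundance. Among the 136 genes with a mean above 10000 it was 84.6%, and Ttn, Ankrd1, Actn2 and Myom1 are all of this class. Between 1000 and 10000 it was 60.8%, and there it held for Ankrd23 and Nexn and not for Csrp3 and Myoz2. Between 100 and 1000, where Tcap lies, it was 22.4%.

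The size of the changes read the same way against abundance. Over all tested genes the median log2 change was -0.21, and 45% of them had a positive change. That of the 9 genes was 1.12, a difference of 1.33. In genes with a mean above 10000 the median was 1.80, with quartiles of 1.10 and 2.64. The changes of Ankrd1 (1.80), Ttn (1.55) and Actn2 (1.36) lay within those quartiles, and that of Myom1 (0.60) lay below them. In genes between 1000 and 10000 the median was 0.97, with quartiles of 0.23 and 1.65. Ankrd23 and Nexn lay within these quartiles, whereas Csrp3 (-0.38) and Myoz2 (-0.33) lay below them. Tcap lay within the quartiles of its own class, -0.78 and 0.89.

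**Figure D2:**
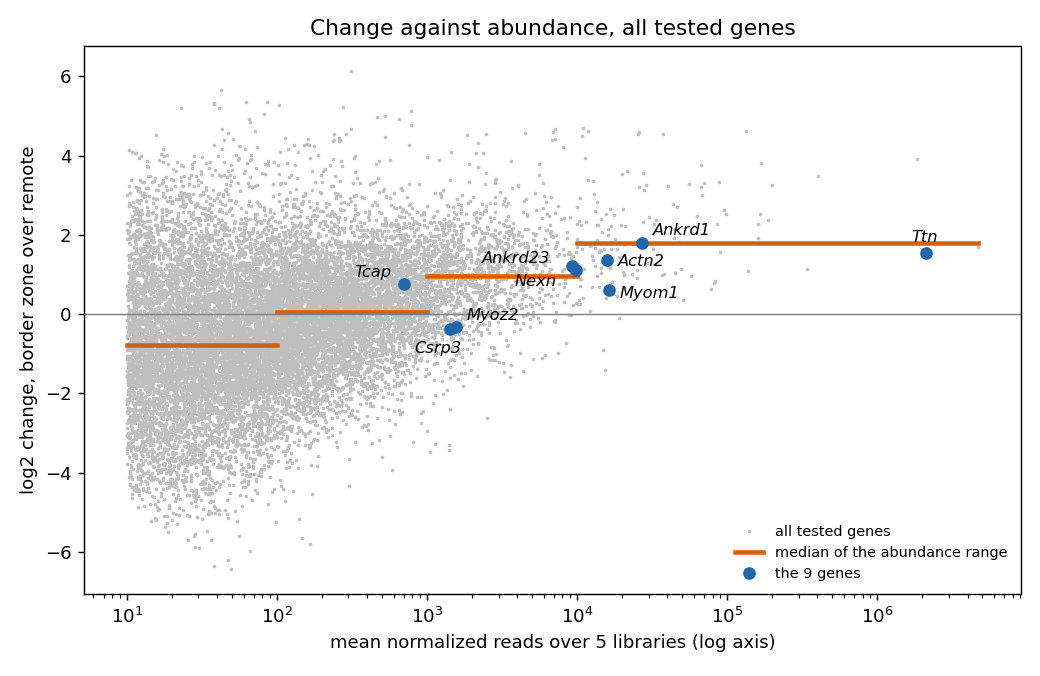
Log2 change of every tested gene, border zone over remote, against its mean normalized reads over the 5 libraries (log axis), with the 9 genes in blue and the median of each abundance range in orange. The orange lines climb from -0.77 to 1.80, and Ttn, Ankrd1, Ankrd23, Actn2 and Nexn lie near the line of their range while Csrp3, Myoz2 and Myom1 lie under it.

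How the libraries were scaled decided the direction for most of the genes. As a share of all reads, Ttn made up 12.4%, 9.26% and 9.87% of the border zone libraries of mice 32, 34 and 40, and 10.6% and 8.76% of those of remote mice 40 and 43. On this scale the groups overlapped, with means of 10.5% ± 1.68 (SD, n = 3) and 9.67% ± 1.29 (SD, n = 2). The 8 other genes together made up 0.393% to 0.409% of border zone reads and 0.443% to 0.518% of remote reads. Actn2 took similar shares, from 0.0678% to 0.0848% in the border zone and from 0.0800% to 0.0820% in remote muscle. Ankrd1 took 0.162%, 0.144% and 0.102% in border zone mice 32, 34 and 40, against 0.108% and 0.0979% in remote mice 40 and 43. Csrp3 took 0.00324%, 0.00425% and 0.00955% in the border zone against 0.0130% and 0.0244% in remote mice 40 and 43. Myoz2 took 0.00502% to 0.00585% against 0.0126% and 0.0268%. Both shares were thus lower in every border zone library than in either remote one.

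With total-count scaling the median of all tested genes moved to -1.58, and the median of the 9 genes stayed 1.27 above it. The log2 changes themselves were then 0.38 for Ankrd1 and 0.12 for Ttn, and negative for the other 7 genes, among them -1.81 for Csrp3 and -1.76 for Myoz2. On this scale 0 of the 9 genes lay above both remote libraries in every border zone library (3.56% of all tested genes), and Csrp3, Myoz2, Nexn and Myom1 lay below (49.1%). The 8 cardiomyocyte markers did not change alike. With the authors' size factors their log2 changes ran from -2.63 (Pln) to 1.79 (Tnnt2), 6 positive and 2 negative. Scaling each library to their mean log2 value, an alternative chosen after the values were seen, kept the signs of all 9 genes. Ankrd1 was then at 1.46, Ttn at 1.20 and Actn2 at 1.02, while Csrp3 was at -0.72 and Myoz2 at -0.67. Under it 5 of the 9 genes (Ttn, Ankrd1, Ankrd23, Nexn and Actn2) lay above both remote libraries (13.8% of all tested genes) and Csrp3 lay below (26.2%). By limma 0 of the 9 passed under either scaling. At an unadjusted p under 0.05, Ankrd1 was higher under the marker scaling (6.7% of genes higher, 11.7% lower), and Csrp3 and Myoz2 were lower under total-count scaling (28.2% lower, 1.17% higher). Under quantile normalization, which gives every library the same distribution of values, Ttn was at -0.62 and Myom1 at -0.96, Ankrd1 at 0.21 and Tcap at 0.36. Csrp3 was at -1.13 and Myoz2 at -1.14. By limma 0 of the 9 passed, and Csrp3, Myoz2 and Myom1 were lower at an unadjusted p under 0.05 (9.31% of genes lower, 9.85% higher). On this scale 0 of the 9 lay above (18.2% of all tested genes), and Csrp3, Myoz2 and Myom1 lay below (20.3%).

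**Figure D3:**
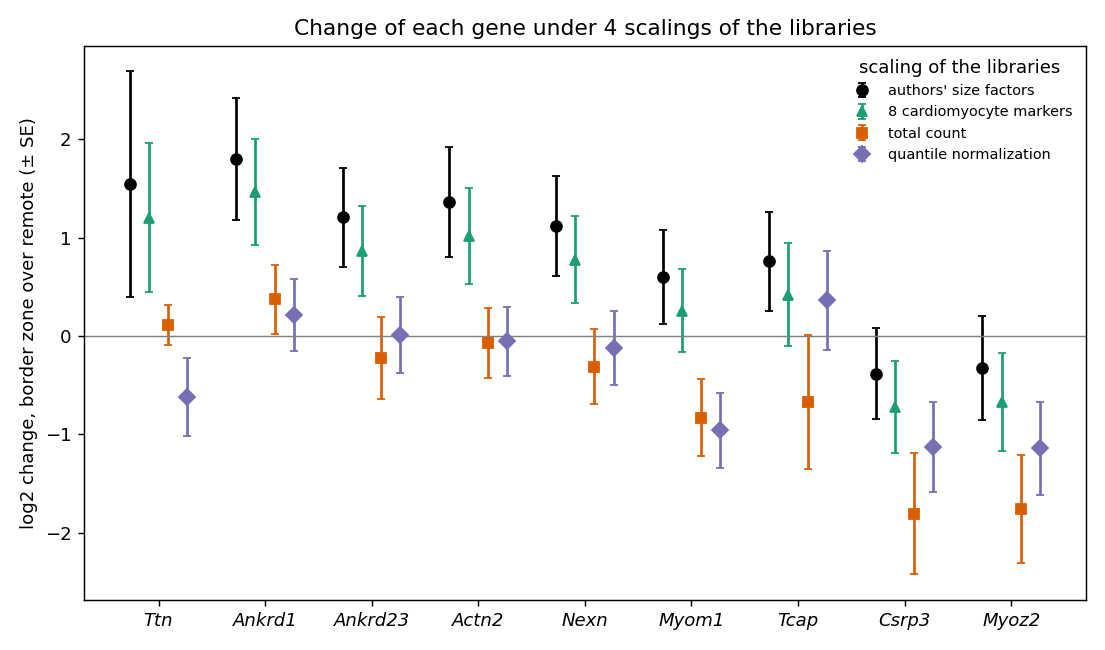
Log2 change of each gene, border zone over remote, with its limma SE, under 4 scalings of the libraries. Of the 9 genes only Ankrd1 has all 4 points above 0, Csrp3 and Myoz2 lie below 0 under all 4, and Ttn runs from 1.55 to -0.62.

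A ratio of a pair of genes in the same library does not depend on the scaling, so each gene was set against Actn2 per kilobase of its longest transcript. Ankrd1 was at 3.25, 3.05 and 2.57 times the level of Actn2 in border zone mice 32, 34 and 40, and at 2.30 and 2.04 times in remote mice 40 and 43. The groups did not overlap, and the log2 ratio was 0.44 higher in the border zone (exact permutation test over libraries, two-sided, p = 0.2, Benjamini-Hochberg adjusted p = 0.533 over 8 ratios). Over all tested genes, the ratio to Actn2 lay higher in every border zone library for 4% and lower in every one for 42.7%. Myoz2 was at 0.0740, 0.0908 and 0.101 times the level of Actn2 in the border zone and at 0.197 and 0.409 times in remote mice 40 and 43. Csrp3 was at 0.0474, 0.0654 and 0.175 times against 0.202 and 0.369 times. These groups did not overlap, and the log2 ratios differed by -1.69 for Myoz2 (exact permutation p = 0.1, adjusted p = 0.533) and by -1.74 for Csrp3 (exact permutation p = 0.2, adjusted p = 0.533). With 3 libraries against 2 the smallest p this test allows is 0.1.

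For the other 5 genes the ratios to Actn2 overlapped between the regions. Ttn was at 4.13, 3.24 and 4.11 times the level of Actn2 in border zone mice 32, 34 and 40 and at 3.73 and 3.01 times in remote mice 40 and 43 (log2 difference 0.18). Nexn was at 0.593, 0.764 and 0.877 times against 0.984 and 0.770 times (log2 difference -0.24). Myom1 and Tcap split the border zone libraries. Myom1 was at 0.391 and 0.414 times in mice 32 and 34 but at 0.903 times in border zone mouse 40, against 0.796 and 1.004 times in remote mice 40 and 43. Tcap was at 0.0895 and 0.0889 times in border zone mice 32 and 34 and at 0.330 times in border zone mouse 40, against 0.205 and 0.215 times in remote mice 40 and 43. The differences for these genes had exact permutation p-values of 0.3 to 0.7.

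**Figure D4:**
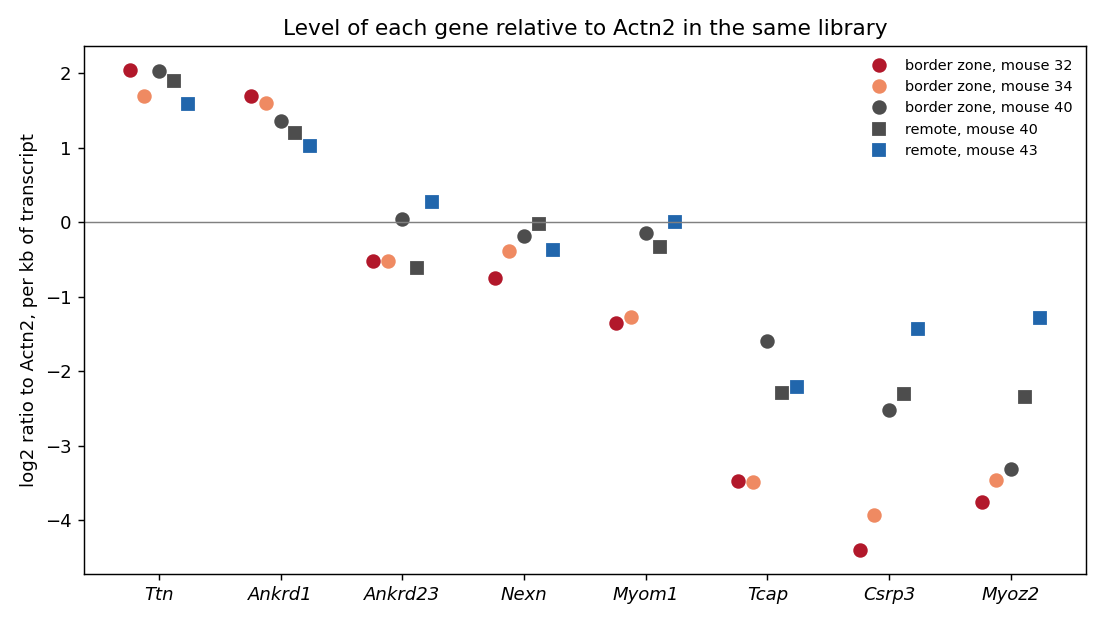
Log2 ratio of each gene to Actn2 in the same library, per kilobase of the longest transcript, in 3 border zone libraries (circles) and 2 remote libraries (squares), coloured by mouse. For Ankrd1 the circles lie above both squares, for Csrp3 and Myoz2 below both, and for Myom1 and Tcap border zone mouse 40 lies apart from mice 32 and 34.

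By level per kilobase, Ttn was first and Ankrd1 second in all 5 libraries, and the order of the other 7 genes differed between libraries. In remote muscle Ttn was at 8420 ± 2312 (SD, n = 2) normalized reads per kilobase and Ankrd1 at 5391 ± 1132 (SD, n = 2). A middle group followed there, with Actn2 at 2473 ± 312, Ankrd23 at 2235 ± 679, Myom1 at 2203 ± 82.8 and Nexn at 2192 ± 649 (SD, n = 2), whose levels did not differ beyond their spread. Myoz2 at 725 ± 277, Csrp3 at 687 ± 204 and Tcap at 517 ± 47.3 (SD, n = 2) were lowest and also lay within each other's spread. In the border zone Ttn was at 27366 ± 16846 and Ankrd1 at 21934 ± 13928 (SD, n = 3) per kilobase, which overlapped. Tcap at 900 ± 252 (SD, n = 3) stood above Csrp3 at 519 ± 62.1 (SD, n = 3) in the border zone. The longest transcript was used for length, and titin isoforms that skip spring exons are shorter. Whether reads in introns were counted is not stated. If they were, levels per kilobase, also those relative to Actn2, do not compare between genes. Ttn spans 279 kb and Actn2 71.3 kb, against longest transcripts of 106824 and 3013 bases.

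With the authors' size factors, 8 of the 9 genes were higher in the border zone within mouse 40, the only animal with both regions. So were 50.6% of all tested genes. The log2 differences were 0.98 for Tcap, 0.96 for Ankrd23, 0.47 for Myom1, 0.45 for Ankrd1, 0.43 for Ttn and 0.29 for Actn2. Nexn at 0.13 and Csrp3 at 0.08 differed little, and Myoz2 was at -0.67. As a share of all reads, only Tcap (0.00704% against 0.00514%) and Ankrd23 (0.0530% against 0.0394%) were higher in the border zone of this mouse. The others were lower, among them Ttn (9.87% against 10.6%), Ankrd1 (0.102% against 0.108%) and Actn2 (0.0678% against 0.0800%). These are single libraries with no replicate. The median difference in this mouse also rose with abundance. It was 0.63 for genes with a mean above 10000, and Ttn, Ankrd1, Actn2 and Myom1 lay below that. It was 0.41 between 1000 and 10000, where Nexn, Csrp3 and Myoz2 lay below and Ankrd23 above. Tcap lay above the median of its class, 0.14. With 1 or more libraries left out, the same 7 genes had to lie above the remote values, because they did so with all libraries. The share of all tested genes was 23.6% without border zone mouse 32, 23.5% without 34 and 27.6% without 40, and 28.6% without remote mouse 40 and 23.3% without 43. Csrp3 lay below without border zone mouse 40 (33.7% of genes) or remote mouse 40 (32.2%), the latter also true of Myoz2, and 0 of the 9 lay below without mouse 32 (25.6%), without mouse 34 (26.2%) or without mouse 43 (26%). With the border zone libraries of mice 32 and 34 left out, the same 7 genes lay above both remote libraries, as did 39.2% of all tested genes, and Myoz2 lay below (38.4%). The log2 changes were then 1.07 for Tcap, 0.71 for Ttn, 0.67 for Ankrd1, 0.64 for Ankrd23 and 0.42 for Actn2. Ankrd1, Ttn and Actn2 thus stood lower than with all libraries, and Tcap higher. The median of the 9 genes lay 0.41 above that of all genes in these 3 libraries.

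The other genes of the same structures were described from 3 lists. Of 18 other Z-disc genes 16 were tested, and 0 passed by limma in either direction. Unadjusted, 8 were higher (10.2% over all genes) and 1 was lower (7.87%), and the list median was 1.34. Under total-count scaling the list median was -0.086, and under quantile normalization 0.014. The authors' deposited table called 2 of them higher and 0 lower, against 3.46% and 1.98% of all its genes with an adjusted p. Flnc, which encodes the actin crosslinker filamin C, was at 85884, 35531 and 15823 normalized reads for border zone mice 32, 34 and 40 and at 7778 and 5615 in remote mice 40 and 43, and had an adjusted p of 0.0163 in the authors' deposited table. Myoz1, a relative of Myoz2, was at 0, 11.1 and 70.4 in the border zone and at 0 in both remote libraries, with an adjusted p of 0.0389 in the authors' deposited table. The log2 change of Cmya5, which encodes a large protein of the Z-disc region, was 1.65 ± 0.55 and did not pass (limma adjusted p = 0.187). Flnc and Cmya5 had means above 10000, and their log2 changes by limma (2.46 and 1.65) lay within the quartiles of that class, 1.10 and 2.64.

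Among 9 other M-band genes, all tested, 0 passed by limma, 2 were higher (10.2% over all genes) and 0 lower (7.87%) at an unadjusted p under 0.05, and the median was 0.48. That median was -0.95 under total-count scaling and -0.15 under quantile normalization. For Obsl1, which encodes a cytoskeletal linker protein, the log2 change was 1.27 ± 0.52 by limma (adjusted p = 0.236).

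Of 12 partners of the titin spring and of strain signalling, all tested, 0 passed by limma, 2 were higher (10.2% over all genes) and 0 lower (7.87%) at an unadjusted p under 0.05, and the median was 0.00. That median was -1.42 under total-count scaling and -0.11 under quantile normalization. Ankrd2, the remaining muscle ankyrin repeat gene, was at 628, 67.7 and 154 normalized reads for border zone mice 32, 34 and 40 and at 30.2 and 2.19 in remote mice 40 and 43. The groups did not overlap, and the authors' deposited table gave it a log2 change of 4.13 with an adjusted p of 0.0154. Rbm20, the splicing factor that sets which titin spring exons are kept, was at 94171, 64929 and 32233 in the border zone and at 19494 and 12199.8 in remote mice 40 and 43. The authors' deposited table called it higher (log2 2.01, adjusted p = 0.0499). The log2 change of Rbm20 by limma, 1.92, lay within the quartiles of genes with a mean above 10000, 1.10 and 2.64. Fhl2, a LIM protein bound to the titin spring, was at -0.88 ± 0.46 on the log2 scale (limma adjusted p = 0.325), and all 3 border zone libraries lay below both remote ones.

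**Figure D5:**
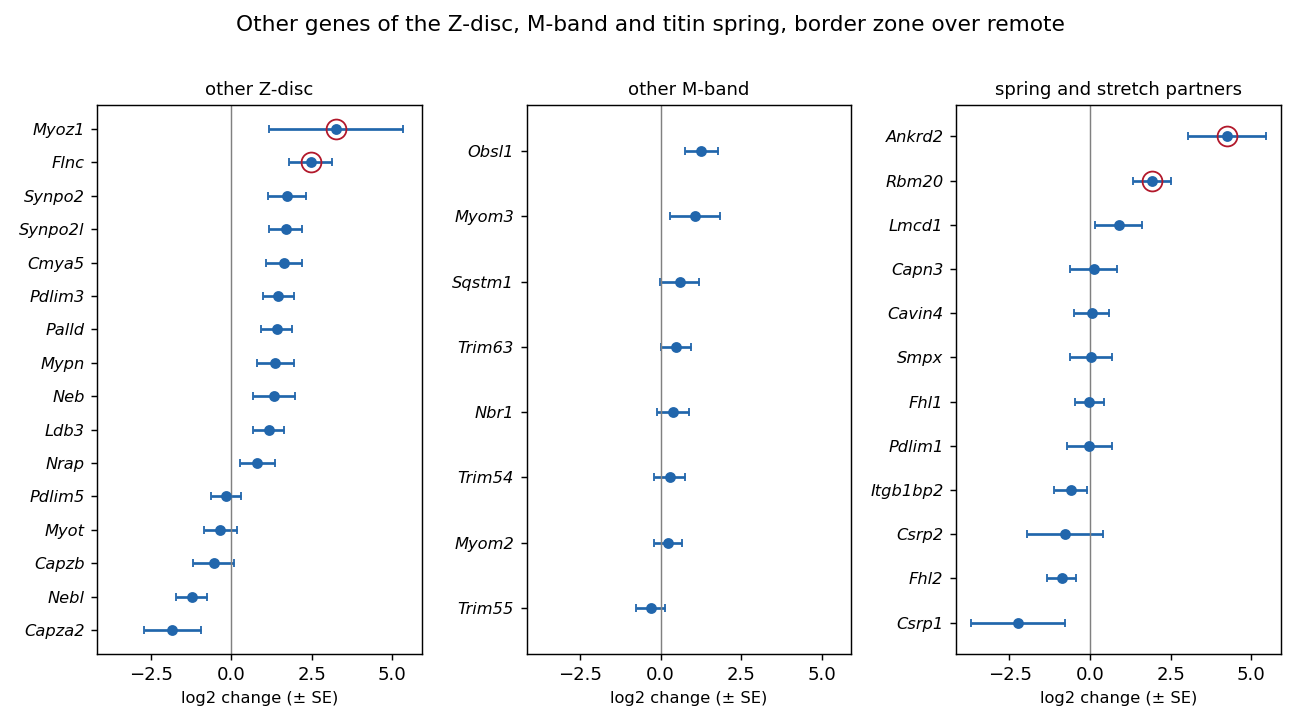
Log2 change with its limma SE, border zone over remote, for genes of 3 lists of other Z-disc genes, other M-band genes and partners of the titin spring. Red rings mark the genes shown that were called in the authors' deposited table (the point of Myoz1, at 0 in both remote libraries, depends on the pseudocount), which are Flnc, Myoz1, Ankrd2 and Rbm20, all to the right of 0.

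Likeness of pattern over the 5 libraries was measured as the root mean square difference of log2 values, each gene centred on its own mean, among 7065 candidate genes whose mean reached 100. The genes nearest to Ttn were Slc12a7 (0.0656), Csnk1e (0.0798) and Sptbn5 (0.0864). Those nearest to Ankrd1 were Prrc2c (0.0593), Rpl22 (0.0771) and Pprc1 (0.0793). Among the 9 genes themselves Ttn and Actn2 were closest (0.183), followed by Ttn and Ankrd1 (0.229), and Csrp3 and Ankrd1 were farthest apart (1.34). Tcap was nearest to Myom1 (0.289), and the member nearest to Csrp3 was Myoz2.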

How the data were processed

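The deposited per-library table holds a signal, namely reads per gene divided by 1 size factor per library by the authors. STAR, DESeq2 and mm10 are named in the submitters' processing notes without roles, and which program counted reads, on which annotation and strand, is not stated there. Dividing by the value of 1 read gave whole numbers (within 0.01) for 100% of entries above 0, so whole reads were recovered. Another part of the deposited workbook holds, per gene, the authors' own log2 fold change with a p-value, raw and adjusted, and a further one the length of the longest transcript.

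Regions were compared by limma 3.58.1 under R 4.3.3, two-sided, with a mean-variance trend and region as the only term, after taking log2(value + 1). It ran on 14989 genes with a mean of at least 10, with Benjamini-Hochberg adjustment over all of them at 0.05. Changes on this scale understate those of low genes. edgeR 4.0.16 and DESeq2 1.42.0 ran on the recovered reads, and the fits were tested on simulated data. Ratios used an exact permutation test. Intervals are at the 95% level and cover counting error only.

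The 9 genes, the 3 further lists, the marker lists and the tests were chosen with earlier results of these data known. Named genes were the 9 genes, list members called by limma or in the authors' table, the 2 most abundant of each list, and the 3 nearest to Ttn and to Ankrd1. The file lists Cavin4 and Adgre1 under older symbols, and they were matched by Ensembl ID. Coordinates are from GENCODE M21, on the assembly of mm10. The p-values measure the spread between libraries, taking those of mouse 40 as independent. Those of limma, edgeR and DESeq2, and the SEs, draw also on the spread of other genes of like abundance. For Ttn they therefore do not measure the spread of its own values alone. A further M-band gene, counted in its list, and a promoter site are not reported here.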

Additional observations from a re-analysis of the deposited data

How the results depend on the processing

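The limits are the 3 against 2 libraries, the scaling and the spread between border zone libraries. By limma 0 genes were called, and 1 under total-count scaling, 1 under quantile normalization and 109 with a mean of at least 100. Without 1 library limma called 0 to 235 genes. DESeq2 called 902, and 524, 458 and 2801 without border zone mice 32, 34 and 40, 526 and 35 without remote mice 40 and 43, and 328 with only mice 40 and 43. Without a remote library, or with only mice 40 and 43, 1 region has a single library, which is assumed to vary like the other region. Of the 9 genes 0 were called in each of these fits, except 3 by DESeq2 without border zone mouse 40 (0 to 3 over the left-out libraries). The median of the 9 genes minus that of all genes, 1.33, was -0.063 under quantile normalization, 0.41 with only mice 40 and 43, and 0.96 to 1.73 without 1 library.

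The count of genes with every border zone value above both remote values, 7, was 0 under total-count scaling and 0 under quantile normalization. It was 7 without each library, and leaving out a library cannot lower it. Under total-count scaling Tcap was at -0.67, Ankrd23 at -0.22, Nexn at -0.31, Actn2 at -0.066 and Myom1 at -0.83. Under quantile normalization Ttn was at -0.62, Nexn at -0.12, Actn2 at -0.055 and Myom1 at -0.96. Without 1 library Myoz2 ran from -0.73 to 0.072. With only mice 40 and 43 the log2 ratio to Actn2 turned for Tcap (0.65), Ankrd23 (0.22), Nexn (0.011) and Myom1 (0.015), and without 1 library that of Ankrd23 ran from -0.60 to 0.29. The cause was not tested. No paired analysis was possible because the regions share only mouse 40. TMM scaling, both other pseudocounts and edgeR turned the sign of none of the 9 genes.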
